A study of Homo sapiens with 6 samples.

Results

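Members of the Wnt signalling system that act at the cell surface, with their feedback and transcription factors, were followed in K562 cells that depend on EP400 with or without the region that holds TRRAP. The 42 genes were taken by symbol from the 60609 genes counted: 19 WNT ligands, 10 Frizzled receptors (FZD1 to FZD10), the co-receptors LRP5 and LRP6, 8 secreted antagonists (SFRP1, SFRP2, SFRP4, SFRP5 and DKK1 to DKK4), and AXIN2, LEF1 and TCF7. The genes were taken for their family and role, not by a threshold on a measured value.

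K562 is an established human leukaemia line, given as a lymphoblast in the labels, in which EP400, an ATPase and scaffold of TIP60, is tagged for degradation at the C-terminus of both endogenous alleles. The cells were complemented from the AAVS1 site with a transgene for wild-type EP400 (WT) or for EP400 lacking the TRRAP-binding region (Delta-TRRAP), and all 6 libraries, 3 per group, came from cells given 500 nM the degrader dTAGV-1, which removes tagged EP400, for 24 h. Every library therefore carried the tag, a transgene and the degrader, and there was no library without degrader. Each complemented line was 1 clone, so clone and genotype cannot be told apart. The study describes the 3 libraries of a group as biological replicates, here of the same clone, so the p-values measure the spread within a clone and not between clones.

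Wnt ligands are secreted, lipid-modified proteins that bind a Frizzled receptor together with LRP5 or LRP6. Binding stops the destruction complex from marking beta-catenin, the product of CTNNB1, for degradation, and beta-catenin then acts with the DNA-binding factors LEF1, TCF7 and their relatives at target genes. AXIN2 is a scaffold of the destruction complex and also a target gene, which closes a negative feedback loop. SFRP proteins bind the ligands, and DKK1, DKK2 and DKK4 bind the co-receptors. In blood, the pathway is best known from lymphocyte development and stem cell self-renewal.

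Poly(A) RNA was counted per gene, and the WT libraries totalled 39966818 to 42616061, those of Delta-TRRAP 35076835 to 38491513. Normalized counts are counts scaled for library depth and composition. EP400 itself had 4897, 4897 and 5377 normalized counts in WT and 5533, 6833 and 4357 in Delta-TRRAP, with a log2 fold change of 0.14 ± 0.11 (SE) and an adjusted p of 0.272. This value adds the tagged locus and the transgene and says nothing of the protein. The K562 label was checked on 15 erythroid genes, all of which passed the minimum count, with normalized counts summing to between 231400 and 233700 in WT libraries and between 170600 and 173700 in those of Delta-TRRAP. TFRC, the transferrin receptor, made up most of that sum and was the only gene of the list called lower, at 192100 and 90170. Another 5 were called higher, beside 16.5% higher and 6.08% lower of all tested genes. Those called higher were ALAS2 (1241 and 16650), HBA2 (564.1 and 5867), HBZ (1439 and 10660), HBA1 (337.4 and 1661) and HBE1 (9.71 and 41.1). The median log2 fold change of the list was 0.71. In bulk RNA, fewer cells of a type and less RNA per cell cannot be told apart.

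Of the 42 members, 20 averaged 5 or more normalized counts per library and were tested, 11 had a few counts only, and 11 had no count in any library. A gene was called when its adjusted p was at most 0.01 and its level differed 2-fold or more, by edgeR's quasi-likelihood test with Benjamini-Hochberg adjustment over 19114 genes. By that rule 3 members were higher in Delta-TRRAP (WNT7A, WNT2B and FZD3) and 4 were lower (WNT5B, WNT10B, FZD2 and LEF1). WNT7A and WNT2B reached the minimum count only through Delta-TRRAP. Over all tested genes the rule called 22.6%, of which 16.5% were higher and 6.08% lower, so the 7 calls among 20 members (35%) stand against a background in which many genes moved. By adjusted p alone, 13 of 20 members passed, 5 higher and 8 lower, against 58.3% of all genes (30.7% higher and 27.6% lower). The 3 libraries of each group did not overlap for 15 of 20 members, and for 71.1% of all tested genes. The median log2 fold change was -0.22 over the tested members and 0.03 over all tested genes.

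**Figure D1:**
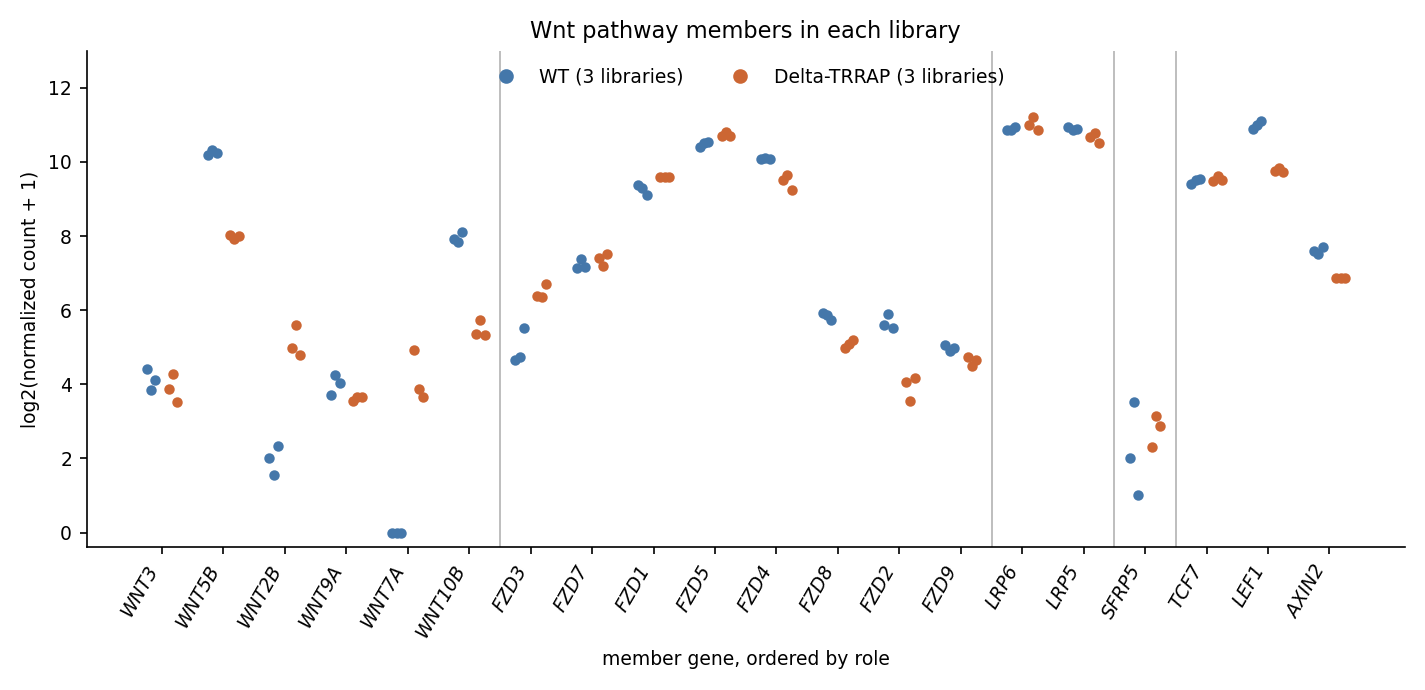
Level of the 20 tested members, as log2 of the normalized count plus 1 (vertical axis), in the 3 WT and 3 Delta-TRRAP libraries, 1 point per library, with lines between the roles. WNT5B, WNT10B, FZD2 and LEF1 lie lower in every Delta-TRRAP library, while WNT2B, FZD3 and WNT7A lie higher.

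The sequence just before the start sites of the called ligands is shown, where a RefSeq window was held, because the ligands had the largest fold changes among the members. Windows of 250 bases came from RefSeq starts on GRCh38.p14, written in the direction of transcription with each CG in capitals. RefSeq windows were at hand for 28 of the 42 members, and among the called members for WNT5B, WNT2B, WNT7A and LEF1; that of LEF1 lay within an annotated UTR and is not printed.
WNT5B, chr12:1616806-1617055, plus strand: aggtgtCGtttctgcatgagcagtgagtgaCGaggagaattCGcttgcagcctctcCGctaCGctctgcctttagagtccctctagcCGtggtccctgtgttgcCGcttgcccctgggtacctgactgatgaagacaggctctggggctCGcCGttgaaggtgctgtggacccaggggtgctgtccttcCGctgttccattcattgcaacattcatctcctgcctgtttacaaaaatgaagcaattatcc
WNT5B, chr12:1628981-1629230, plus strand: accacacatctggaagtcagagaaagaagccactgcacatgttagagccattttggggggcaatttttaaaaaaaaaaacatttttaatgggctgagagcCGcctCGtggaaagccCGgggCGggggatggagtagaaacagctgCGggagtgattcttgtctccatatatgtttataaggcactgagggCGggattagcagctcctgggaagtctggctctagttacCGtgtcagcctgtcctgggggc
WNT2B, chr1:112466291-112466540, plus strand: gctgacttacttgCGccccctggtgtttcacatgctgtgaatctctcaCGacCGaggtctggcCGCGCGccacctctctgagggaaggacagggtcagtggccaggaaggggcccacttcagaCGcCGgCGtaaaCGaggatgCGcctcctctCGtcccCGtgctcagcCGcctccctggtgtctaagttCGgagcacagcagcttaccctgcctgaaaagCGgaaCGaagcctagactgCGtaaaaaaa
WNT2B, chr1:112508715-112508964, plus strand: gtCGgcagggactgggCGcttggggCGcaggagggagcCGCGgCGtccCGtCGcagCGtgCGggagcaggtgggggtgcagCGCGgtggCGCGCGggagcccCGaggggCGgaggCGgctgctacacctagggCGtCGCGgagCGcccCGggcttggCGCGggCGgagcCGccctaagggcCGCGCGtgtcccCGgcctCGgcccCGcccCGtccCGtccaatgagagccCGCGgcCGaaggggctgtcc
WNT7A, chr3:13880072-13880321, minus strand: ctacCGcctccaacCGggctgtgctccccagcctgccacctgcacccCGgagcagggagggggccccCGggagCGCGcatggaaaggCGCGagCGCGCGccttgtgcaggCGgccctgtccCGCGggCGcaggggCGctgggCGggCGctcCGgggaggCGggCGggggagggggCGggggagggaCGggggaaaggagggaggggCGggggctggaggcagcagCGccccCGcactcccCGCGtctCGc

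Both WNT5B windows had a GC content below the median of the 35114 windows searched (54.8% and 50.8%, against 58.0%) and held 10 and 7 CG dinucleotides, against a median of 11. The WNT2B windows had 60.4% and 80.0% GC with 18 and 38 CG dinucleotides, and the WNT7A window had 80.4% GC with 29. The ratio of observed to expected CG was 0.53 and 0.45 in the WNT5B windows, 0.79 and 0.97 in the WNT2B windows and 0.74 in the WNT7A window, against a median of 0.56. The letters CTTTGA and CTTTGT, the core read by TCF and LEF factors, and the E-box CACGTG were looked for on both strands. They occurred in 11.2%, 13.7% and 6.3% of all windows and in none of the windows of these called ligands, which says only that these letters are not in these 250 bases. GC content as high as that of WNT7A was also found in windows of members that were not called or had no count: 80.8% for FZD4, 84.4% for WNT9A, 87.2% for LRP5 and 86.0% for WNT3A. The libraries do not show which start site each gene used.

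Among the ligands, the pair with the most RNA in WT cells fell. WNT5B (ENSG00000111186.13, GRCh38 chromosome 12, 1529891 to 1647212) encodes a ligand known mainly for beta-catenin-independent signalling. It had 1172, 1271 and 1208 normalized counts in WT and 258.9, 242.7 and 253.9 in Delta-TRRAP. The groups lay far apart and the libraries within each were close. The mean went from 1217 (SD 50, n = 3) to 251.8 ± 8.26 (SD, n = 3), 4.83-fold lower, with a log2 fold change of -2.27 ± 0.07 (SE) and an edgeR adjusted p of 2.57e-13. WNT5B overlaps FBXL14 on the opposite strand, and counting used the strand.

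WNT10B (ENSG00000169884.14, chromosome 12, 48965340 to 48971735), a ligand of the beta-catenin branch, had 241.2, 228.3 and 273.7 normalized counts in WT and 40.2, 52.6 and 39.1 in Delta-TRRAP. No library overlapped between groups. It was 5.599-fold lower, with a log2 fold change of -2.49 ± 0.14 (SE) and an edgeR adjusted p of 4.44e-10.

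WNT2B and WNT7A moved the other way, from a low or undetected level. WNT2B (ENSG00000134245.18, chromosome 1, 112466541 to 112530165), a ligand of the beta-catenin branch, had 3.04, 1.92 and 4.07 normalized counts in WT and 30.4, 47.8 and 26.4 in Delta-TRRAP. Every Delta-TRRAP library lay above every WT library, and the rise was 11.3-fold (log2 fold change 3.50 ± 0.41 (SE), edgeR adjusted p 1.79e-06). WNT7A (ENSG00000154764.6, chromosome 3, 13816258 to 13880071), which can act through either branch, was without a count in the 3 WT libraries and had 30, 14 and 11 in those of Delta-TRRAP. Its mean of 18.2 ± 9.74 normalized counts (SD, n = 3) was at least 6.08-fold higher than the 3 normalized counts per library that a count of 0 allows, with an edgeR adjusted p of 3.17e-05. Without Delta-TRRAP replicate 1 WNT7A fell under the minimum count and was not tested. WNT2B overlaps ST7L on the opposite strand, and no gene with counts overlaps WNT7A on its own strand.

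WNT3 and WNT9A, both low, did not pass the test. WNT3 had 20.3, 13.4 and 16.3 normalized counts in WT against 13.7, 18.5 and 10.6, with overlap between groups (log2 fold change -0.21 ± 0.31 (SE), edgeR adjusted p 0.566). WNT9A had 12.2, 18.2 and 15.3 against 10.8, 11.7 and 11.6, without overlap, but the difference of -0.42 ± 0.31 (SE) was small against its error (edgeR adjusted p 0.237).

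The remaining 13 ligands were under the minimum count. WNT8A, WNT6, WNT10A, WNT3A, WNT9B and WNT7B had no count in any library, which allows up to 3 counts in each. WNT11, a ligand known from beta-catenin-independent signalling, had counts of 8, 9 and 10 in the WT libraries and of 1, 0 and 1 in the Delta-TRRAP libraries. The depth-scaled ratio was 0.0746, and its exact 95% interval of 0.0086 to 0.297 covers counting error only. WNT11 averaged 4.825 normalized counts over the 6 libraries, under the minimum of 5. It passed and was called lower when any Delta-TRRAP library was left out, because WT, where it was high, then weighed more. Those fits use the same counts and add no further support. For WNT2 the counts were 0, 1 and 0 in WT and 8, 7 and 6 in Delta-TRRAP. Its ratio was 21.2, with an interval of 3.40 to 875. WNT16 had none in WT and 3 in each Delta-TRRAP library. WNT5A had 3 counts in all and WNT1, WNT4 and WNT8B 1 each, all in Delta-TRRAP, too few to compare.

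Levels between genes were compared in TPM, a transcript level per exon length that sums to a fixed total in each library, computed from the counts. WNT5B led the ligands in both groups, at 27.6 ± 1.29 TPM (SD, n = 3) in WT and 5.89 ± 0.23 in Delta-TRRAP, followed by WNT10B at 9.14 ± 0.93 and 1.68 ± 0.32. All other ligands lay below 1 TPM. WNT9A (0.365 ± 0.075 TPM), WNT11 (0.363 ± 0.047) and WNT3 (0.296 ± 0.059) came next in WT and lay within each other's spread (SD, n = 3), ahead of WNT2B (0.0234). WNT11, which was under the minimum count, was at 0.0281 TPM in Delta-TRRAP. In Delta-TRRAP WNT7A (0.40 ± 0.22), WNT9A (0.281), WNT2B (0.281) and WNT3 (0.264) lay close together, within the spread of WNT7A. Summed over the 19 ligands, the level was 36.0, 38.3 and 38.9 TPM in WT and 9.54, 9.46 and 8.37 in Delta-TRRAP. The Delta-TRRAP mean of 9.12 ± 0.65 was 0.242 of the WT mean of 37.8 ± 1.52 (SD, n = 3). WNT5B made up 73.0% of that sum in WT and 64.5% in Delta-TRRAP.

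**Figure D2:**
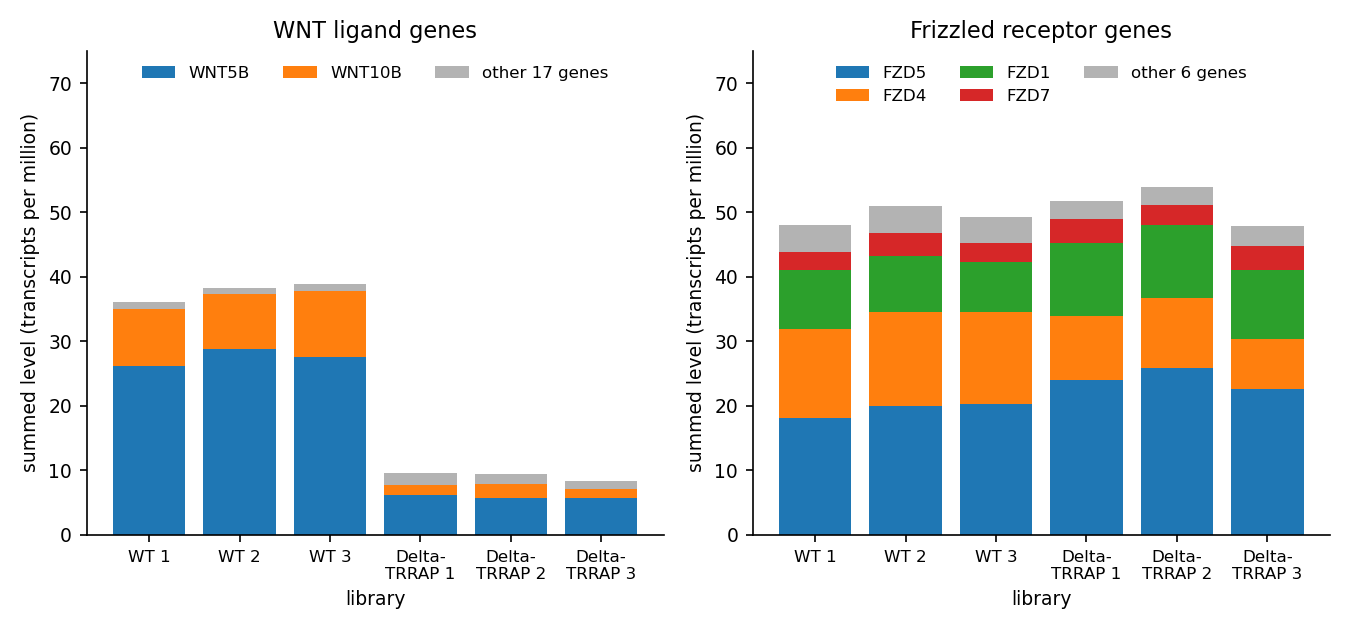
Summed TPM of the 19 ligands (left) and the 10 Frizzled genes (right), 1 stacked bar per library, coloured by gene. WNT5B and WNT10B fill most of the ligand bars, which average 37.8 TPM in WT and 9.12 in Delta-TRRAP, while the Frizzled bars average 49.4 and 51.2.

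The Frizzled receptors, seven-pass membrane proteins that bind the ligands, moved in both directions. Of the 10, 8 were tested, 6 passed the adjusted p alone and 2 also changed at least 2-fold, beside 58.3% and 22.6% of all tested genes, so these counts are near the background. FZD3 (ENSG00000104290.11, chromosome 8, 28494205 to 28574267), known from axon guidance and planar polarity, had 24.3, 25.9 and 44.8 normalized counts in WT and 82.4, 80.9 and 102.6 in Delta-TRRAP. It was 2.79-fold higher without overlap between groups (log2 fold change 1.48 ± 0.21 (SE), edgeR adjusted p 1.53e-05). FZD2 (ENSG00000180340.7, chromosome 17, 44557484 to 44561262) had 47.6, 58.5 and 44.8 in WT and 15.7, 10.7 and 16.9 in Delta-TRRAP, 3.48-fold lower (log2 fold change -1.80 ± 0.24 (SE), edgeR adjusted p 7.06e-06).

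A further 4 receptors passed the adjusted p without reaching 2-fold. FZD4, known as the Norrin receptor of retinal vessels, had 1073, 1110 and 1081 normalized counts in WT and 731.5, 797.4 and 599.8 in Delta-TRRAP, with a log2 fold change of -0.61 ± 0.08 (SE) and an edgeR adjusted p of 7.14e-06. FZD8 went from 51.9 to 59.8 normalized counts in WT to between 30.4 and 36.0 (log2 fold change -0.77, edgeR adjusted p 0.00128). FZD5, a receptor for several ligands including WNT7A, had 1344, 1466 and 1477 in WT and 1673, 1801 and 1661 in Delta-TRRAP (log2 fold change 0.26, edgeR adjusted p 8.25e-04). FZD1 had 659.6, 629.3 and 555.5 in WT and 771.7, 765.3 and 770.1 (log2 fold change 0.32, edgeR adjusted p 6.42e-04). None of these 4 overlapped between groups.

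FZD7 and FZD9 did not pass the test. The log2 fold change of FZD7 was 0.15 ± 0.12 (SE), with overlapping groups and an edgeR adjusted p of 0.29. FZD9 had -0.36 ± 0.22 (SE) without overlap and an edgeR adjusted p of 0.149. FZD6 totalled 7 counts in WT and 5 in Delta-TRRAP, and FZD10 had none. On the TPM scale FZD5 led in both groups, at 19.5 ± 1.2 and 24.1 ± 1.65 TPM (SD, n = 3). FZD4 (14.1 ± 0.33) lay above FZD1 (8.55 ± 0.67) in WT, while in Delta-TRRAP they were at 9.55 ± 1.61 and 11.1 ± 0.32, within the spread of FZD4. FZD3 and FZD2 remained below 2 TPM in both groups. The 10 receptors summed to 49.4 ± 1.53 TPM in WT and 51.2 ± 3.07 in Delta-TRRAP, a difference within the spread between replicates.

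**Figure D3:**
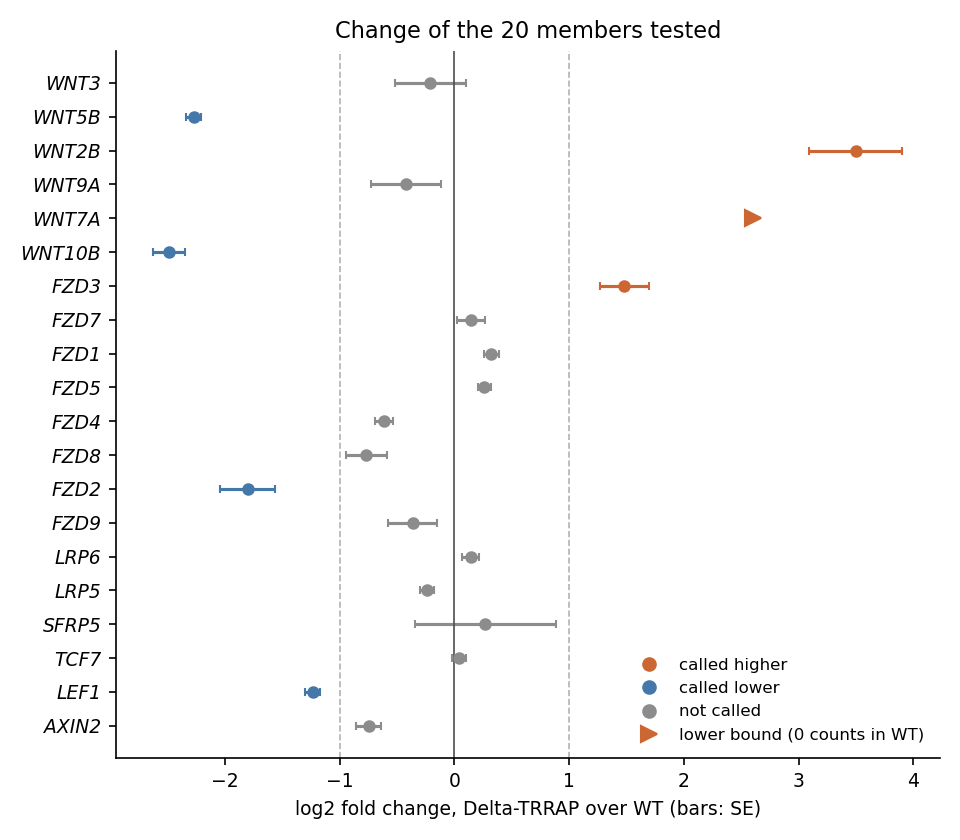
Log2 fold change of Delta-TRRAP over WT for the 20 tested members, ordered by role, with standard errors as bars, dashed lines at the 2-fold limits and an arrow for WNT7A at its lower bound. Ligands span the widest range, from -2.49 for WNT10B to 3.50 for WNT2B among those detected in both groups, and the Frizzled genes lie on both sides of 0.

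The co-receptors LRP5 and LRP6, single-pass proteins that join the ligand and a Frizzled receptor, changed little. LRP5 had 1955, 1860 and 1896 normalized counts in WT and 1642, 1752 and 1446 in Delta-TRRAP, a log2 fold change of -0.24 ± 0.06 (SE) with an edgeR adjusted p of 0.00418. LRP6 had 1872, 1845 and 1974 against 2047, 2354 and 1872, with overlapping groups (log2 fold change 0.14 ± 0.07 (SE), edgeR adjusted p 0.0909). Both values depended in size, but not in sign, on the choice of scaling. With scaling by library size alone, which moved the median of all tested genes from 0.03 to 0.16, LRP5 had -0.11 (edgeR adjusted p 0.155) and LRP6 0.27 (edgeR adjusted p 0.00251). Leaving out WT replicate 1, WT replicate 3 or Delta-TRRAP replicate 3 moved the edgeR adjusted p of LRP5 to 0.0155, 0.0101 and 0.011, and without Delta-TRRAP replicate 3 that of LRP6 was 0.00472. The pair summed to 47.1 ± 1.06 TPM in WT and 45.9 ± 5.99 in Delta-TRRAP (SD, n = 3), a difference within the spread.

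Secreted antagonists were close to undetected in both groups. DKK1, DKK2, DKK4 and SFRP4 had no count in any library. SFRP5 alone reached the minimum, with 3.04, 10.6 and 1.02 normalized counts in WT and 3.92, 7.80 and 6.35 in Delta-TRRAP (log2 fold change 0.27, edgeR adjusted p 0.713), and no direction could be read from it. DKK3 was counted 9 times in WT, all in replicate 2, and 12 times in Delta-TRRAP. SFRP1 had 2 and 8 counts, and SFRP2 had 1, in WT. The 8 antagonists summed to 0.301 ± 0.276 TPM in WT and 0.406 ± 0.094 in Delta-TRRAP (SD, n = 3).

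Of the feedback and transcription factors, LEF1 and AXIN2 fell by adjusted p and TCF7 did not pass the test. LEF1 (ENSG00000138795.10, chromosome 4, 108047545 to 108168956), a DNA-binding partner of beta-catenin, had 1909, 2059 and 2210 normalized counts in WT and 859.0, 912.5 and 849.4 in Delta-TRRAP. It was 2.36-fold lower (log2 fold change -1.24 ± 0.06 (SE), edgeR adjusted p 1.39e-10) with no overlap, and it overlaps LEF1-AS1 on the opposite strand. AXIN2 (ENSG00000168646.13, chromosome 17, 65528563 to 65561648) had 191.5, 183.2 and 208.6 in WT and 115.7, 115.0 and 116.4 in Delta-TRRAP (log2 fold change -0.75 ± 0.11 (SE), edgeR adjusted p 1.27e-05), short of 2-fold. TCF7, the other DNA-binding factor, had 682.9, 733.8 and 747.8 against 714.9, 786.7 and 723.5, with overlapping groups and an edgeR adjusted p of 0.597. LEF1 was the most abundant of the 3 in TPM in both groups, at 36.9 ± 3.07 and 16.2 ± 1.02 (SD, n = 3). The 3 genes summed to 47.3 ± 3.64 TPM in WT and 25.7 ± 1.58 in Delta-TRRAP, which was 0.542 of the WT level.

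Genes around the members were compared with them, over tested genes that averaged 100 or more normalized counts and started within 1 Mb. Around WNT10B, 21 of 27 neighbours had a negative log2 fold change and their median was -0.70, with 3 called lower: DDN at -4.60 (its start 27.6 kb from that of WNT10B), RHEBL1 at -1.80 and ADCY6 at -1.08. WNT10B itself, at -2.49, lay below all neighbours but DDN. All 4 neighbours of LEF1 were negative, with a median of -0.85, and PAPSS1 (-1.497) lay below LEF1. Around WNT5B the median of 9 neighbours was 0.09, and LINC00942 had -2.37. Its start was 29.4 kb from the annotated gene start of WNT5B. The RefSeq starts of WNT5B used for the windows above lie further from it, inside the annotated gene. The medians around FZD2, FZD3, WNT2B and WNT7A were 0.07, -0.06, -0.14 and -0.18. The neighbouring genes named here were chosen after their values were seen. What part the shifts around WNT10B and LEF1 have in the values of these members was not tested.

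**Figure D4:**
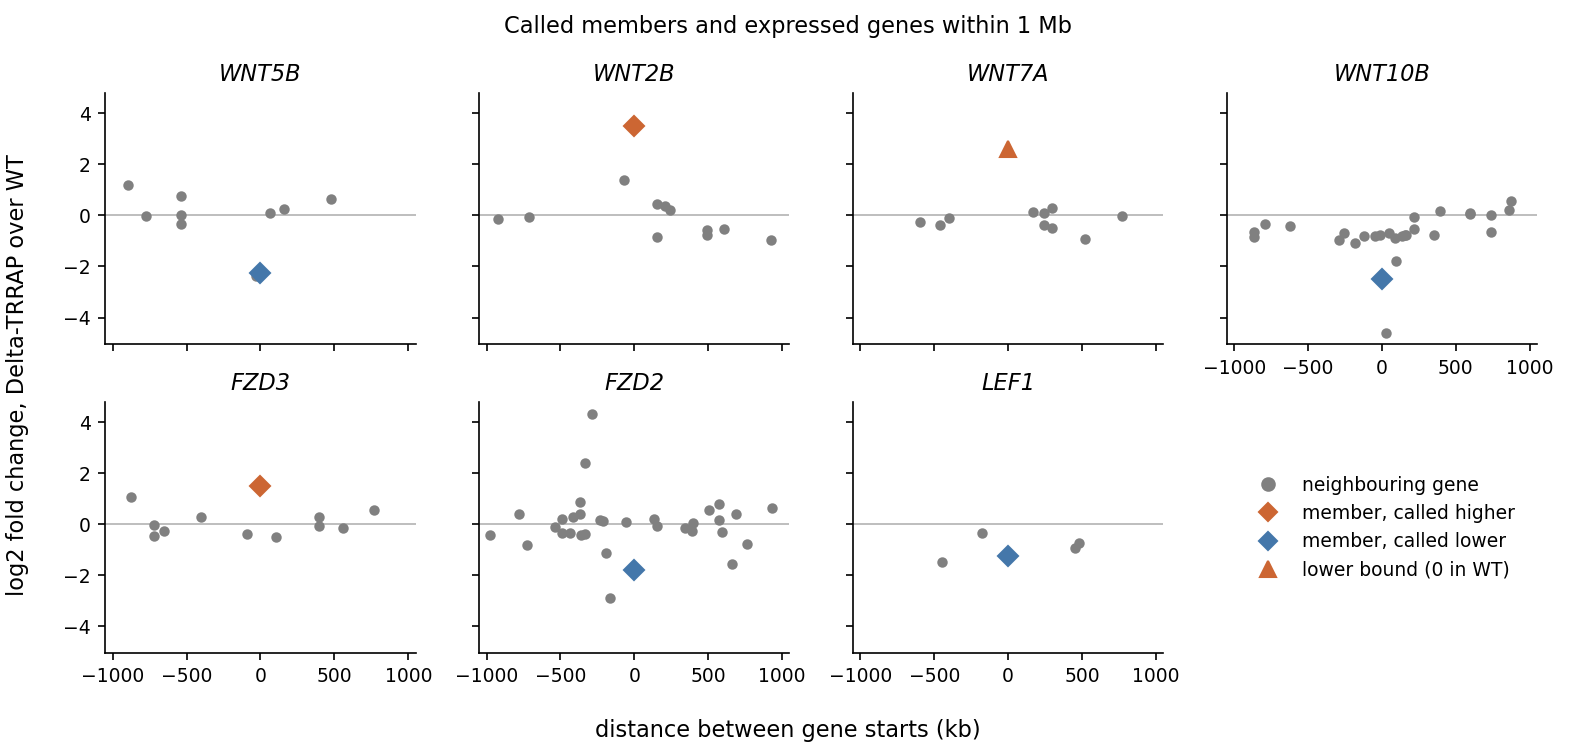
Log2 fold change (vertical axis) of the 7 called members, as diamonds, or as a triangle at the lower bound for WNT7A, and of neighbouring genes, as grey points, against the distance between starts in kb. WNT10B (27 neighbours, median -0.70) and LEF1 (4 neighbours, median -0.85) lie among genes with mostly negative values, and WNT5B (9 neighbours, median 0.09) does not.

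The rest of the pathway was taken from 7 hand-written lists holding 101 further genes, of which 71 were tested, 6 called higher and 10 called lower, where 16.5% and 6.08% of all tested genes were called. By adjusted p alone 22 were higher and 22 lower, close to the 30.7% and 27.6% of all tested genes, and the median log2 fold change was -0.02. In the list of ligand secretion and handling, 4 of 6 genes were tested, 2 were higher and 1 was lower. NOTUM, a secreted enzyme that removes the lipid of Wnt ligands, had 184.4, 200.5 and 160.8 normalized counts in WT and 50.01, 44.8 and 42.3 in Delta-TRRAP (log2 fold change -1.99 ± 0.14 (SE), edgeR adjusted p 6.47e-09). The glypicans GPC4 and GPC6, cell surface proteoglycans, rose from 1.64 to 20.7 and from 6.06 to 28.9 mean normalized counts (log2 fold changes 3.55 and 2.26, edgeR adjusted p 1.43e-05 and 1.22e-04). PORCN, which attaches the lipid, had a log2 fold change of -0.35 (edgeR adjusted p 0.0623), and WLS, the ligand's transporter, had 1 count over the 6 libraries together.

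In the branch of R-spondins, LGR receptors and the ligases that remove Frizzled from the surface, 4 of 9 genes were tested. RNF43, such a ligase, had 43.6, 32.6 and 27.5 normalized counts in WT and 13.7, 9.75 and 9.52 in Delta-TRRAP (log2 fold change -1.64 ± 0.28 (SE), edgeR adjusted p 1.10e-04). LGR6, an R-spondin receptor, rose from 21.5 to 44.3 (log2 fold change 1.04 ± 0.22 (SE), edgeR adjusted p 5.87e-04), close to the 2-fold limit, and its call was lost without WT replicate 3 or without Delta-TRRAP replicate 1. Among 13 other antagonists, 7 were tested and 2 were lower, beside 6.08% of all tested genes. IGFBP4, an insulin-like growth factor binding protein that can also bind LRP6 and Frizzled, had 6249, 6511 and 6338 normalized counts in WT and 245.2, 244.7 and 243.3 in Delta-TRRAP (log2 fold change -4.70 ± 0.06 (SE), edgeR adjusted p 9.58e-17). KREMEN2, a receptor for DKK proteins, fell from 119.5 to 29.9 (log2 fold change -1.99, edgeR adjusted p 3.48e-08). None of the 9 tested genes of the list of other receptors and planar polarity was called by edgeR, DESeq2 or limma-voom. By adjusted p alone 2 were higher and 4 lower, beside 30.7% and 27.6% of all tested genes. An unadjusted p under 0.05 in edgeR was reached by 7, and the share of all genes at that limit was not computed. PRICKLE1, a planar polarity gene named after its values were seen, was called lower without WT replicate 1 or Delta-TRRAP replicate 2.

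All 20 genes of the destruction complex and cytoplasmic relay were tested, and 1 was called, beside 22.6% of all tested genes. AMER1, a membrane adaptor of APC, had 905.8, 915.1 and 941.1 normalized counts in WT and 325.6, 431.9 and 296.2 in Delta-TRRAP (log2 fold change -1.39 ± 0.10 (SE), edgeR adjusted p 8.30e-09). CTNNB1 had 13950, 12980 and 13220 in WT and 9830, 9813 and 9621 in Delta-TRRAP, a log2 fold change of -0.46 ± 0.05 (SE) with an edgeR adjusted p of 8.81e-07, well short of 2-fold. GSK3B, the kinase that marks beta-catenin, had 0.02 ± 0.06 (SE) and an edgeR adjusted p of 0.709. The Dishevelled genes, whose proteins relay the signal from Frizzled, went in different directions: DVL1 had -0.77 and DVL3 0.75 (edgeR adjusted p 5.68e-09 and 1.28e-08). These and BTRC, a ubiquitin ligase subunit that recognises beta-catenin, at 0.98, were picked after their values were seen. BTRC passed the 2-fold limit under scaling by library size alone (1.11) and without WT replicate 2 or Delta-TRRAP replicate 3. Of 15 genes of the nuclear complex 12 were tested and 1 was called, beside 22.6% of all tested genes. This was TLE4, a co-repressor that binds TCF and LEF factors. It rose from 28.2 to 115.8 mean normalized counts (log2 fold change 2.03 ± 0.16 (SE), edgeR adjusted p 1.70e-08). By adjusted p alone 5 genes of the list were higher and 1 lower, beside 30.7% and 27.6% of all tested genes. TCF7L2, a relative of LEF1 and TCF7 named after its values were seen, went from 104.4 to 180.9. Its log2 fold change was 0.79 ± 0.12 (SE), short of 2-fold (edgeR adjusted p 2.59e-05).

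Of 30 commonly cited target genes 18 were tested, 2 were higher and 7 lower, beside 16.5% and 6.08% of all tested genes, with a median log2 fold change of -0.17. By adjusted p alone 5 were higher and 8 lower, beside 30.7% and 27.6% of all tested genes. CCND1, which encodes cyclin D1, had 1668, 1798 and 1817 normalized counts in WT and 75.5, 63.4 and 38.1 in Delta-TRRAP (log2 fold change -4.89 ± 0.12 (SE), edgeR adjusted p 3.88e-14). The study presents CCND1 as an example from these libraries, so it is not independent. ASCL2, a transcription factor of intestinal stem cells, went from 25.3, 25.9 and 32.6 normalized counts to 1 count in the 3 Delta-TRRAP libraries (edgeR adjusted p 2.63e-07). EPHB2, an ephrin receptor, rose from 0.658 to 16.6 (log2 fold change 4.41 ± 0.62 (SE), edgeR adjusted p 1.40e-05). The list shares NOTUM and RNF43 with the lists above, and BAMBI, SP5 and PPARD were its other lower genes, at -1.70, -3.16 and -1.01. SP5 was under the minimum without WT replicate 1 or 2, and PPARD, at the 2-fold limit, lost its call without WT replicate 2 or Delta-TRRAP replicate 3 and under scaling by library size alone. MYC had 0.04 ± 0.05 (SE) with an edgeR adjusted p of 0.49. JUN (0.96), ID2 (0.70) and CD44 (0.23) passed the adjusted p upward and BIRC5 (-0.18) downward, all short of 2-fold. JUN was called higher under scaling by library size alone (1.09). JUN, ID2, CD44 and BIRC5 were named after their values were seen.

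**Figure D5:**
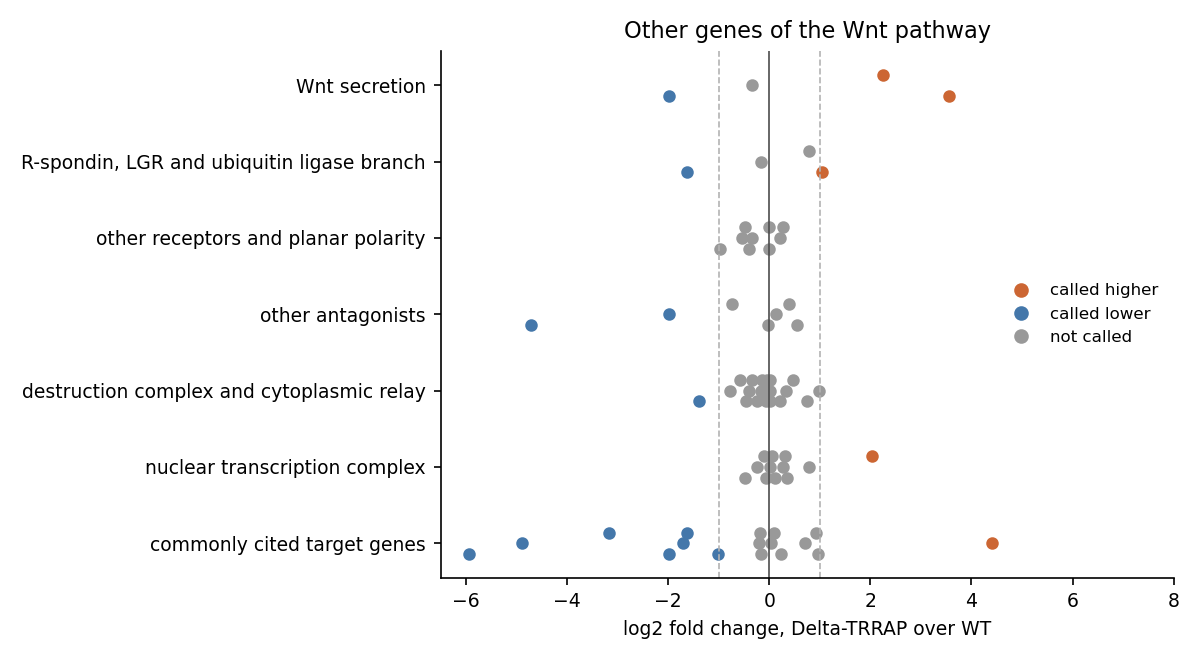
Log2 fold change of the tested genes of each of the 7 pathway lists, 1 point per gene, coloured by call, with dashed lines at the 2-fold limits, for genes with a count in both groups. Called genes lie on both sides of 0, with IGFBP4 (-4.70) and CCND1 (-4.89) among the lowest.

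Marker genes of other cell types differed between the groups too. Of the 15 genes of the fibroblast and smooth muscle list, 9 were tested, 4 called higher and 1 lower, beside 16.5% and 6.08% of all tested genes. The list summed to between 1731 and 1902 normalized counts in WT libraries and between 2488 and 2815 in those of Delta-TRRAP. LUM and PDGFRA were at 0 in all libraries, and the called genes of the list moved in both directions. COL1A2 averaged 1.62 and 875.5 normalized counts in the WT and Delta-TRRAP groups and ACTA2 0.32 and 530.2. COL5A1 (22.7 and 47.6) and PDGFRB (1.65 and 9.34) were also called higher. CNN1, the gene called lower, averaged 285.1 and 70.1. COL6A3, at 1361 and 943.9, and TAGLN, at 74.8 and 118.5, passed the adjusted p without reaching 2-fold and were not called. COL1A1, at 28.7 and 30.1, and DCN, at 11.6 and 8.90, did not pass the test. The epithelial list summed to 23730 to 24440 and 25070 to 26810. Of its 9 genes 4 were tested and 1 was called, EPCAM, which was lower (means 6994 and 2399). KRT18 (5220 and 8306) and KRT19 (2796 and 5127) passed the adjusted p in the other direction without reaching 2-fold. The T cell list summed to 475.2 to 490.2 and 436.7 to 480.2, with CD8A at 0. Most of that was CD3D (433.8 and 387.4), and ZAP70 (3.33 and 21.7) was the 1 gene called, higher, among 4 tested. The endothelial list summed to 681.9 to 695.5 and 421.0 to 497.2. Most of that was PECAM1 (674.1 and 400.6), while TEK (2.30 and 34.0) was the 1 gene called, higher, among 3 tested. What part these marker genes have in the values of the Wnt genes was not tested.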

How the data were processed

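Stranded poly(A) RNA-seq of 6 K562 libraries was used, 3 per group, grouped by their titles. The authors deposited unnormalized counts per gene: STAR placed the reads on hg38, and HTSeq 2.0.2 counted unique ones, reverse-stranded, on GENCODE release 32. Discarding multi-mapping reads lowers counts of near-identical genes. The deposited table of normalized values, with 3 columns of per-sample values not in the labels, and the authors' comparison table of fold changes and p-values were not used.

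The test was that of edgeR 4.0.16, run in R 4.3.3 (TMM, quasi-likelihood F test, group as the only term, Benjamini-Hochberg adjustment). A mean of 5 or more normalized counts was required, which kept 19114 of 34998 genes with a count. This mean was over all 6 libraries, so a gene under 5 in a group could pass through the other group alone. WNT2B, WNT7A, GPC4, EPHB2, ASCL2 and SP5 were among such genes, and their calls share that limit. Thresholds (adjusted p 0.01, 2-fold) are those in the study's methods, where DESeq2 was the tool. Errors are SD over 3 libraries for levels and SE for log2 fold changes. An exact permutation test of 3 against 3 libraries cannot go below p = 0.1 and was not run. TPM used merged exon lengths of GENCODE release 44, which matched 42 of 42 members and 60340 of 60609 gene IDs. Intervals of count ratios are exact conditional binomial and cover counting error only.

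Every tested member is named. From each pathway list, called genes up to the 4 with the largest absolute change are named, plus CTNNB1, GSK3B, CCND1 and MYC. The values of 1 called gene of these lists are not reported here. Members and lists were chosen with earlier results of these data known. Replicate numbers did not pair the libraries (correlations of deviations 0.035, -0.072 and -0.134). The procedure was tested on simulated data in which few genes changed, equally in both directions, with a fixed spread between replicates. The real data had many more calls and more higher than lower, a setting that the simulation does not cover. Alternatives were DESeq2 1.42.0, limma-voom (limma 3.58.1), other scalings, filters and thresholds, a replicate block, and fits without each library in turn.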

Additional observations from a re-analysis of the deposited data

How the results depend on the processing

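In 272 refits of single members, no called member lost its call where it was tested, and the direction turned in 2 fits of genes that were not called. Without 1 library, SFRP5 ranged from -0.20 to 0.50 and TCF7 from -0.006 to 0.061, the negative values being those without WT replicate 3 and WT replicate 1. Members called higher numbered 5 with no filter on low counts, which added WNT16 (edgeR adjusted p 0.00987) and WNT2 (1.25e-04), 5 with no fold threshold, and 1 with a minimum count of 20, which left out WNT2B and WNT7A. Members called lower numbered 7 at 1.5-fold and 8 with no fold threshold. Leaving out 1 library gave 2 to 3 higher and 4 to 5 lower members, the changes being WNT7A, not tested without Delta-TRRAP replicate 1, and WNT11. Pathway genes called higher numbered 3 with a minimum count of 20, 12 at 1.5-fold and 22 with no fold threshold, and those called lower 22 with no fold threshold. Leaving out 1 library gave 5 to 7 higher and 8 to 11 lower pathway genes. With the replicate number as a block, 3 members were higher and 4 lower, and 6 pathway genes were higher and 10 lower, so the block changed no call. Over all genes, scaling by library size alone gave 3553 higher and 928 lower genes against 3160 and 1162. Depth limits the 22 members not tested, of which WNT16, WNT2 and WNT11 were called with no filter; for the others a difference was not detectable at this depth.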
